A study of Mus musculus with 2 samples.

Results

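Keratin genes were examined in the nasal mucosa of C57BL/6 mice, 3 days after instillation of papain or of phosphate-buffered saline (PBS). Papain, a cysteine protease from the papaya plant, serves as an allergen model here, and PBS is its vehicle. The mice were 4 to 6 weeks old. RNA of the whole mucosa was read on GeneChip Mouse Gene 2.0 ST arrays, of which papain had 1 and PBS had 1. According to the design text each specimen was a combination of samples, 4 in number, and it is not stated if that number holds for each array. A keratin was any gene whose symbol is Krt followed by a number, and 53 of 22180 named genes met this rule, 27 of type I, 25 of type II and Krt222, a type I-like gene. Where a gene had several rows the brightest was taken, which concerned only Krt18. Krt5, the basal partner of Krt14, had no row of its own and shared one with Krt6a.

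Keratins are the intermediate filament proteins of epithelial cells. A filament needs 1 type I and 1 type II chain, so the genes are used in pairs: Krt8 with Krt18 in simple epithelium, Krt5 with Krt14 in basal cells of stratified epithelium, Krt1 with Krt10 in differentiating epidermis and Krt4 with Krt13 in differentiating mucosa. Krt6a, Krt6b, Krt16 and Krt17 are switched on in wounded or stressed epithelium and in hair follicles, and the hair and inner root sheath keratins belong to the follicle. In the nose, respiratory and olfactory epithelium rest on basal cells with Krt5 and Krt14, and the vestibule carries squamous epithelium and hairs.

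All signals below are deposited log2 values, and a ratio is the papain value minus the PBS value on that scale. With 1 array per group no test was possible and no ratio has a replicate check. Precision is limited by the number of arrays. In bulk tissue, fewer cells of a type and less RNA per cell cannot be told apart. Background level is set by 34 genes that belong to other tissues: their median signal was 4.88 after papain and 4.78 after PBS, and their 95 percentile across the arrays was 6.65. A keratin is called clear here when both signals exceeded 6.65. The SD of 1 row's ratio, from 1082 genes with repeated rows, was 0.32, and it was 0.22 among the 147 genes with at least 2 clear rows. It measures probe error and not the spread between mice. By these marks 18 keratins were clear, 22 more were above background level in both arrays, 4 were under it in 1 array and 9 in both.

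The keratins that the mucosa showed clearly were nearly all lower in the papain array, by small amounts. Of the 18 clear keratins, 17 had a ratio below 0, and the median was -0.25. Among all 9075 clear genes 65.8% had a ratio below 0 and the median was -0.10. The mark for a clear gene was applied as a filter after the data had been seen. With the planned filter of both signals above background level, 25 of 40 keratins were below 0, with a median of -0.07. Under this filter 9536 of 16373 named genes were below 0, with a median of -0.06. Under another planned filter, the higher signal at the median of named genes or above, 18 keratins were below 0, with a median of -0.25. This filter kept the 18 clear keratins and only Krt42 and Krt73 besides, so the set was nearly the same. The share of all named genes below 0 under it is not given here. Among the clear keratins only Krt6b was higher, at 0.27, and Krt6a was counted as lower. Other rows that name these genes went the opposite way, at -0.37 for Krt6b with Gm5478 and 0.36 for Krt6a with Krt5. With rows of several symbols added 16 of the 18 were below 0. With quantile normalization or after loess of the ratio on signal 16 of the 18 were below 0, the medians being -0.21 and -0.16, against medians of -0.04 and 0.01 for all clear genes. Of the 18, 6 were lower by more than 0.32, the SD of 1 row, against 18.7% of all clear genes, and 12 lay within it. By the SD of clear rows, 0.22, 10 were lower by more, against 29.8% of all clear genes, 1 was higher by more and 7 lay within it.

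The other 35 keratins gave no common direction. Of these, 19 had a ratio above 0, with a median of 0.06, while 53.5% of all genes that were not clear had a ratio above 0. Of the 35, 9 were higher by more than the SD of 1 row, beside 21.3% of all genes that were not clear, and 1 was lower by more, beside 16.9%. Over all 53 keratins the median ratio was -0.06, beside -0.03 for all named genes, and 33 were below 0, beside 54.4% of named genes. The spread ran from -1.00 for Krt75 to 1.05 for Krt90. At a 2-fold threshold 1 keratin was higher and 1 lower, beside 1.83% and 0.73% of all named genes. At 1.5-fold 2 were higher and 3 lower, beside 5.38% and 4.34%. Both genes were only just past 2-fold, and their ratios became -0.93 and 0.98 with quantile normalization and -0.88 and 0.98 after loess, for Krt75 and Krt90 in that order, short of the threshold.

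**Figure D1:**
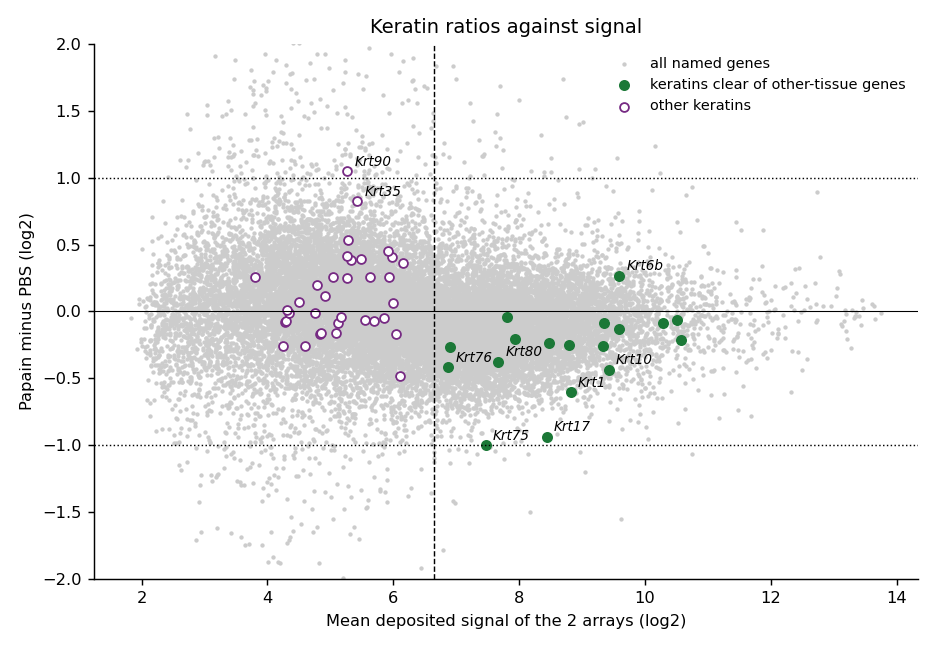
Papain minus PBS (log2) against mean signal (log2) for all named genes (grey) and the keratins, filled where clear and open where not. The vertical axis stops at -2 and 2, which leaves out some grey points but no keratin; dotted lines mark 2-fold and the dashed line 6.65.

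All 5 simple epithelial keratins had ratios below 0, by small amounts. The 4 that were clear had a median of -0.21. Of all clear genes 65.8% had a ratio below 0, with a median of -0.10. Krt18, the type I chain of the simple pair, read 10.46 after papain and 10.68 after PBS, a ratio of -0.22. Krt8, its type II partner, read 10.24 and 10.33, a ratio of -0.09. By the brightest rows the pair therefore differed by 0.13 in ratio. With averaged rows Krt18 had -0.58 and lay further from Krt8. Krt19 and Krt7, keratins of ducts, glands and airway epithelium, had ratios of -0.25 and -0.21, from 8.67 against 8.93 and 7.83 against 8.04. Krt20, a keratin of gut and urinary epithelium, was under background level in both arrays, at 4.24 and 4.32. None of these 5 ratios reached 0.32, the SD over all repeated rows, and that of Krt19 alone passed the 0.22 of clear rows. Krt18 had a second, dimmer row that read 6.36 after papain and 7.31 after PBS, a ratio of -0.95, so its rows gave the same direction and very different sizes.

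Basal keratins were measured by 2 genes. Krt15, a keratin of basal cells, read 10.49 after papain and 10.55 after PBS, a ratio of -0.06. Krt14 read 8.35 and 8.59, a ratio of -0.24. Both ratios lay within 0.32, and that of Krt14 passed the 0.22 of clear rows. The row shared by Krt5 and Krt6a read 10.18 and 9.83, a ratio of 0.36, and cannot be given to either gene. Among 7 other basal cell markers the median ratio was 0.02, with Snai2 at -0.68 and Aqp4, a water channel, at 0.31. Trp63, the transcription factor of stratified epithelium, named after its value was seen, had 0.02.

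By the brightest row of each gene, the epidermal pair was lower by more than the simple and basal keratins. With averaged rows Krt18 had -0.58, which lay below the ratio of Krt10, so this order depends on the choice of rows. Krt1 read 8.51 after papain and 9.12 after PBS, a PBS over papain ratio of 1.52. Krt10 read 9.20 and 9.64, a PBS over papain ratio of 1.35. On the log2 scale these were -0.61 and -0.44, and both passed the SD of 1 row in the same direction. Krt9 and Krt77, at signals of 5.14 against 5.19 and 4.97 against 4.85, were near background level with ratios of -0.04 and 0.12. Krt2, a keratin of the upper epidermis, was under background level in both arrays.

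All 4 keratins of differentiating mucosa had ratios below 0, and those of the main pair were close to 0. All 4 were clear, and 65.8% of all clear genes had a ratio below 0, with a median of -0.10. Krt4 read 9.52 after papain and 9.65 after PBS, and Krt13 read 7.78 and 7.83, for ratios of -0.13 and -0.04. The ratio of Krt13 turned to 0.07 after loess. Krt76, a keratin of palate and gum, read 6.67 and 7.09, a ratio of -0.42. Krt78 read 6.77 and 7.04, a ratio of -0.27. Krt76 passed 0.32, and Krt78 passed only the 0.22 of clear rows. The papain signal of Krt76 lay close to the 6.65 that marks a clear gene.

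Keratins of stressed epithelium had ratios of both signs. Krt17 had the second lowest ratio of all keratins: it read 7.97 after papain and 8.91 after PBS, a PBS over papain ratio of 1.91 or -0.94 on the log2 scale. Only 0.929% of all named genes had a lower ratio. Krt6a read 9.21 and 9.47, a ratio of -0.26, while its close relative Krt6b read 9.73 and 9.46, a ratio of 0.27. Krt16, the usual type I partner of the Krt6 chains, was near background level at 5.17 and 4.91, a ratio of 0.26. Krt17 thus stood 1.20 below Krt6b and 0.68 below Krt6a in ratio, although these chains can share a filament. The Krt6 genes resemble each other closely, and their rows disagreed: a row that names Krt6b together with Gm5478 had a ratio of -0.37, at 4.82 and 5.19, and the row of Krt5 and Krt6a had 0.36. No direction is therefore given for Krt6a or Krt6b.

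Krt75 and Krt90, the lowest and the highest ratio among the keratins, are neighbours among the keratin genes of the type II cluster. Krt75, a keratin of the companion layer around the hair shaft, read 6.97 after papain and 7.97 after PBS, a PBS over papain ratio of 2.00. Only 0.726% of named genes had a lower ratio. Krt75 lay just past the 2-fold threshold, and Krt17 just short of it. Krt90 read 5.80 after papain and 4.75 after PBS, and this PBS signal was under background level, so its ratio of 1.05 compares array signals and is no measure of the fold in transcript.

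The start regions of Krt75 and Krt90 are shown because the ratios of these adjacent genes were opposite, and those of Krt8, Krt18 and Krt10 because they represent the simple and the epidermal pairs. Each runs 5′ to 3′ on the strand of its gene, from 250 bases before to 50 bases after the start site, and is taken from RefSeq on build GRCm38.p6. Capitals mark every match to the 7 motifs searched on both strands: the TATA box core TATAAA, AP-1 TGANTCA, AP-2 GCCNNNGGC, the GC box GGGCGG, KLF GGGTGTGG, C/EBP TTGCNNAA and STAT TTCNNNGAA.
Krt75 (chr15:101573855-101574154, minus strand): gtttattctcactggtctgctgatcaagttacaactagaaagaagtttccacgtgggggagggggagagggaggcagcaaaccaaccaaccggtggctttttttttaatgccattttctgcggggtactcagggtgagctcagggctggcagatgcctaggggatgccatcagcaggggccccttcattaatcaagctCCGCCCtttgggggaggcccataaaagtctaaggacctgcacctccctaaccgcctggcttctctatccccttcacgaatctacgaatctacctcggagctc
Krt90 (chr15:101562901-101563200, minus strand): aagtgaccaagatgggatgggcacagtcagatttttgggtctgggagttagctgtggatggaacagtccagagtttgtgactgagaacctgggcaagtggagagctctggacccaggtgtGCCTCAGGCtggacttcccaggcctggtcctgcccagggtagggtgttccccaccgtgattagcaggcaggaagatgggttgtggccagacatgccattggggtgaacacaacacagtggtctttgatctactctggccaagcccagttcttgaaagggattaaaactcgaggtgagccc
Krt8 (chr15:102004293-102004592, minus strand): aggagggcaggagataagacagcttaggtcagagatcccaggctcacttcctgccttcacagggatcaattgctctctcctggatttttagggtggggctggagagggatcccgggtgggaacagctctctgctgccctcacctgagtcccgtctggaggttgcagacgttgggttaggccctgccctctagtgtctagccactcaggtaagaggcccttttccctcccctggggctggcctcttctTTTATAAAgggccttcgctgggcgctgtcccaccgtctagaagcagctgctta
Krt18 (chr15:102027966-102028265, plus strand): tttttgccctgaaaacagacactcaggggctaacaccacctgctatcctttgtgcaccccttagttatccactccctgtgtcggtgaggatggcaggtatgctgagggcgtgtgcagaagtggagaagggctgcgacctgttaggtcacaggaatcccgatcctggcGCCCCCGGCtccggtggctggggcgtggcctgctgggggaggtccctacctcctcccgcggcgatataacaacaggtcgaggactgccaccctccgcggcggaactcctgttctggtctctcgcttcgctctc
Krt10 (chr11:99389315-99389614, minus strand): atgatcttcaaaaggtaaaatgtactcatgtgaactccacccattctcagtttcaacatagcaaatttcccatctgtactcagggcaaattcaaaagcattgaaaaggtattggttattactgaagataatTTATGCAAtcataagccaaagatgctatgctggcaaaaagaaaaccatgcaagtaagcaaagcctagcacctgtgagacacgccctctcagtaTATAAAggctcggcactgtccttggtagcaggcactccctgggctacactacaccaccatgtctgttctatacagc

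In these 5 windows the letters of Krt75 held 1 GC box, those of Krt90 and Krt18 each 1 AP-2 match, those of Krt8 overlapping TATAAA matches on both strands at the start site, and those of Krt10 a TATAAA that begins at position -26 and 1 C/EBP match. RefSeq windows were at hand for 35 of the 53 keratins, with 36 windows in all. TATAAA on either strand was in 52.8% of the keratin windows and in 13.6% of 32851 windows of all genes. Counting only TATAAA on the strand of the gene that begins between -49 and -16, the shares were 38.9% and 2.36%. By class, 7 of 8 inner root sheath and companion layer genes and 6 of 9 hair keratins held TATAAA on either strand, as did 2 of 4 simple epithelial, 1 of 4 epidermal, 1 of 3 mucosal, 0 of 1 basal and 2 of 6 genes of no other class. Of the 10 clear keratins with a window 3 held it. A GC box was in 5.56% of keratin windows and in 35.7% of all windows. AP-2 matches were in 19.4% and 16.6%, C/EBP in 13.9% and 10.8%, KLF in 11.1% and 3.56%, STAT in 11.1% and 8.30%, and AP-1 in 5.56% and 7.81%. A match describes letters in these windows and is no measured site.

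Apart from Krt75, the inner root sheath keratins were dim. These 8 genes, Krt25 to Krt28 and Krt71 to Krt74, form the sheath that guides the growing hair. Krt27 read 5.55 after papain and 5.01 after PBS, Krt72 read 6.18 and 5.77, and Krt73 read 6.33 and 5.97. Their ratios were 0.53, 0.41 and 0.36, all higher in the papain array and all past the SD of 1 row. Of all genes that were not clear, 21.3% were higher by more than this SD, which pools bright and dim rows. Krt72 and Krt73 are neighbours. The other 5 had ratios from -0.26 for Krt25 to 0.26 for Krt26, and 4 of these 5, all but Krt74, were under background level in both arrays.

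None of the 15 hair keratins was clear, and their ratios lay on both sides of 0, with 8 above and a median of 0.06. Krt35, a keratin of the early hair cortex, read 5.84 after papain and 5.02 after PBS, a ratio of 0.82. Krt34 read 5.47 and 5.06, Krt33b read 5.68 and 5.29, and Krt33a read 5.51 and 5.13. These 3 genes are neighbours with ratios of 0.41, 0.39 and 0.38, and Krt33a and Krt33b are so alike that their rows may not be separate measures. Krt40 and Krt36 had ratios of 0.26 and 0.25, from 6.07 against 5.81 and 5.39 against 5.14. Krt83, Krt39, Krt82, Krt86 and Krt32 had ratios from -0.17 to -0.06, and Krt81 had 0.06. Krt83 read 5.96 after papain and 6.13 after PBS, Krt39 read 5.02 and 5.18, and Krt82 read 5.08 and 5.17. Krt86 read 5.65 and 5.72, Krt32 read 5.51 and 5.58, and Krt81 read 6.02 and 5.96. None of these 6 ratios reached the SD of 1 row. Krt31, Krt84 and Krt87 were under background level in at least 1 array.

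Markers of hair follicle and sebaceous gland gave no common direction. Of 9 such genes 6 had ratios below 0, with a median of -0.19, beside 54.4% of all named genes. Of the 3 that were clear, 2 were above 0, with a median of 0.18 over the 3. Among these, Lgr6 had -0.40 and Dlx3 0.31, while Mc5r, which was not clear, had -0.48. Over the 9 genes the log2 of the summed signal was 9.96 after papain and 10.12 after PBS. Tchh, which encodes trichohyalin of the inner root sheath, was under background level in both arrays at 4.19 and 4.60. The hair keratin-associated proteins, which crosslink hair keratins, were 51 genes with a median ratio of 0.15. Under background level in both arrays were 33 of them, beside 4569 of all 22180 named genes. The median ratio was -0.03 for all named genes and 0.03 for all genes that were not clear. Of these 51, 2 were at least 2-fold higher and 1 lower, beside 1.83% and 0.73% of all named genes. Each of these Krtap genes past 2-fold had at least 1 signal under background level.

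Of the remaining keratins, Krt23 and Krt80 were clear. Krt23 read 9.31 after papain and 9.40 after PBS, a ratio of -0.08. Krt80, a type II keratin of differentiating epithelia, read 7.48 and 7.85, a ratio of -0.38, past the SD of 1 row. Krt42, a type I gene next to Krt17, read 5.87 and 6.35, a ratio of -0.48, and was the only keratin that was not clear and lower by more than that SD. Krt79, a keratin of the upper follicle and sebaceous duct, read 6.14 and 5.69, a ratio of 0.45. Krt88 read 5.76 and 5.51 and Krt24 read 5.82 and 5.87, for ratios of 0.25 and -0.05. Krt12, the cornea keratin, and Krt222 were under background level in 1 array and in both.

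Along the clusters, clear keratins often stood in groups, such as Krt75, Krt6b and Krt6a, between runs of keratins that were not clear. Some, such as Krt10 and Krt23, stood alone. Runs of either sign followed each other. In the type I cluster Krt13, Krt15, Krt19, Krt9 and Krt14 followed each other with ratios from -0.25 to -0.04, and Krt40, Krt33a, Krt33b, Krt34 and Krt31 with ratios from 0.07 to 0.41. Krt16, at 0.26, lay between Krt14 and Krt17. In the type II cluster the opposite ratios of Krt90 and Krt75 stood side by side. Over the 53 genes the ratio correlated with mean signal with a Spearman rho of -0.34, a description across genes that share the same 2 arrays. It was -0.19 over all named genes.

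**Figure D2:**
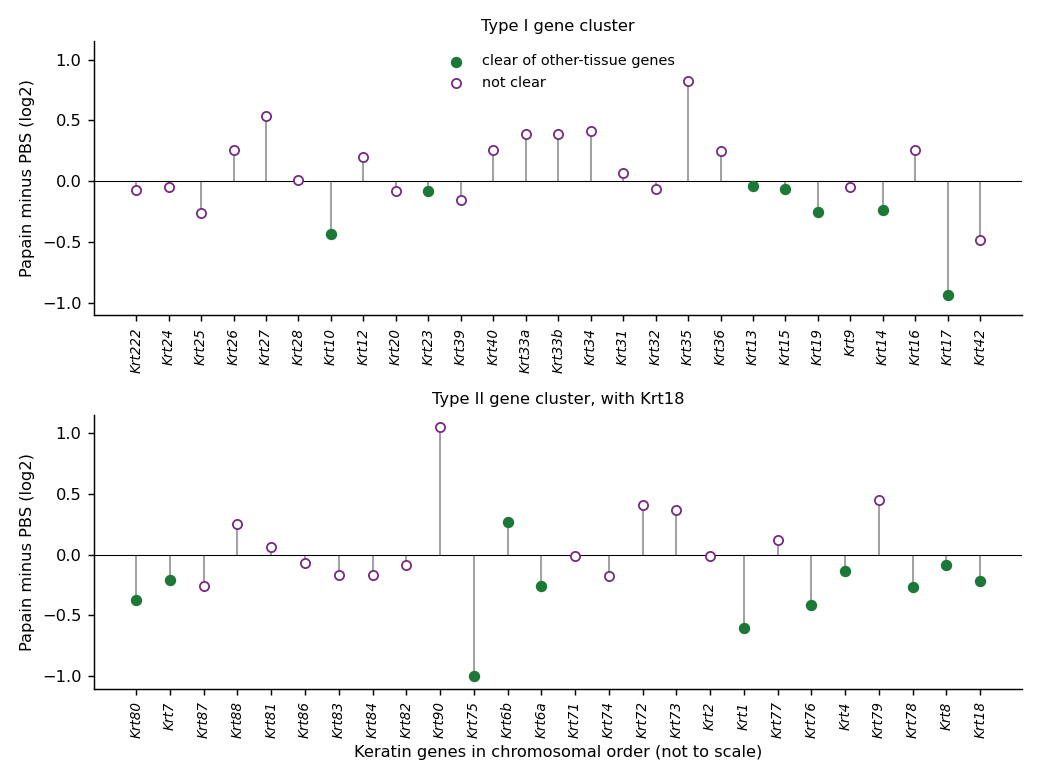
Papain minus PBS (log2) of each measured keratin in the order of the genes on the chromosome, distances not to scale, for the type I cluster (upper) and the type II cluster with Krt18 (lower). Filled points are clear keratins and open points are not; Krt75 at -1.00 and Krt90 at 1.05 stand side by side.

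Among proteins that hold keratin filaments at cell contacts, the 7 desmosomal linkers all had ratios below 0, with a median of -0.17, and none reached 2-fold. All 7 were clear, and 65.8% of all clear genes had a ratio below 0, with a median of -0.10. Jup, plakoglobin, had -0.44, from 7.97 against 8.41, and Ppl, periplakin, had -0.21. Pkp1 and Pkp2, plakophilins, had -0.19 and -0.17. The median of the list became -0.07 after loess. Of 6 hemidesmosome genes, which anchor keratin to the basement membrane, all of them clear, 4 were below 0 with a median of -0.09, close to the share and the median of all clear genes. The median became 0.02 after loess. Col17a1 had -0.30, Cd151 -0.28, Itga6 0.13 and Itgb4 -0.10.

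Genes that act on keratin filaments or on keratin genes went both ways. Of 7 filament-aggregating proteins 5 were below 0, with a median of -0.06, beside 54.4% of all named genes and their median of -0.03. Hrnr, hornerin, had -0.37 and Crnn, cornulin, -0.36, while Flg2, under background level in both arrays, had 0.21 and Tchh, given above, -0.41. Flg, filaggrin, which bundles Krt1 and Krt10 filaments and was named after its value was seen, had 0.21. Of 14 transcription factors 9 were below 0, with a median of -0.22. Among the 7 that were clear 4 were below 0 and 3 above, beside 65.8% of all clear genes below 0. Tfap2a, the AP-2 alpha factor, had -0.73, from 6.84 against 7.58, Lef1 -0.43, Grhl2 -0.38 and Gata3 -0.36, and none of the 14 reached 2-fold.

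**Figure D3:**
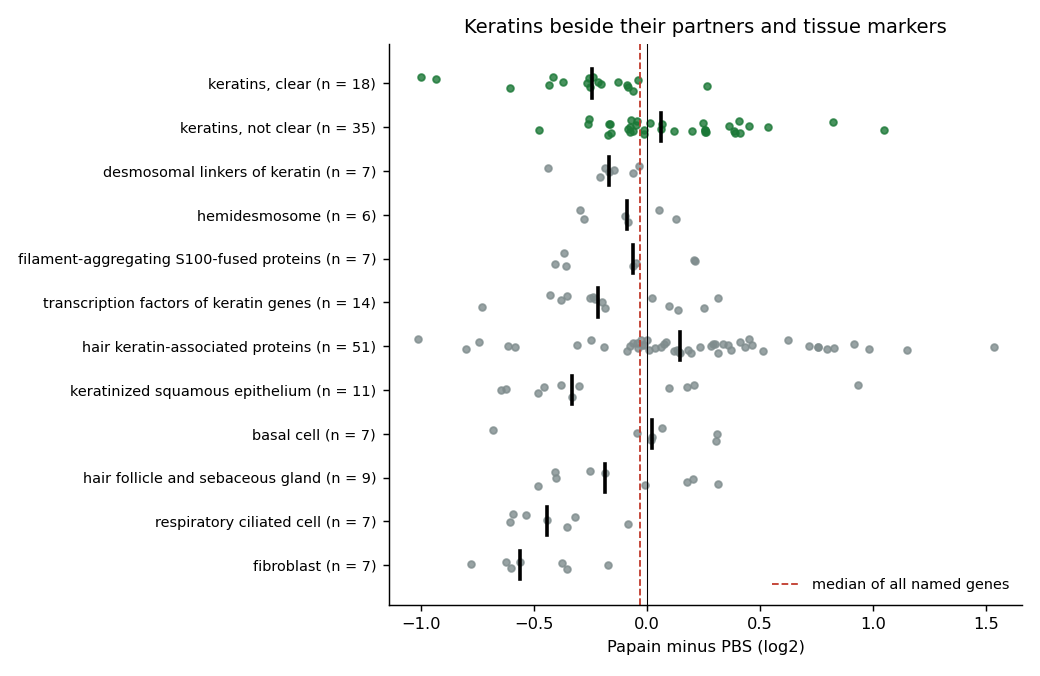
Papain minus PBS (log2) of single genes (points) in the keratins and 10 lists of partner or marker genes, with each list's median as a black bar. Clear keratins had a median of -0.25, desmosomal linkers -0.17 and fibroblast markers -0.56; the dashed line is the median of all named genes, -0.03.

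Marker lists of the tissues in the mucosa had their own ratios, which stand beside 54.4% of all named genes below 0 and 65.8% of clear genes. Keratinized squamous markers had ratios below 0 for 7 of 11 genes, a share near these, with a median of -0.33, and the log2 of their summed signal was 12.33 after papain and 12.64 after PBS. Lor, loricrin of the cornified envelope, had -0.65, Sprr3 -0.63 and Sbsn -0.48, while Sprr1b had 0.93 from a PBS signal of 5.18. All 7 ciliated cell markers and all 7 fibroblast markers were below 0, with medians of -0.45 and -0.56 and summed signals of 12.36 against 12.79 and 13.51 against 14.05. All 6 vomeronasal neuron markers were above 0, 3 of them past 2-fold, with summed signals of 11.14 against 10.35. The PBS signals of these 3, H2-M1, Calr4 and H2-M10.5, were under background level, and the 2 clear markers had a median of 0.42. Of 6 markers of cartilage and bone 4 were below 0, with a median of -0.62 and summed signals of 9.54 against 10.11. Of 5 leukocyte markers 3 were above 0, with a median of 0.03 and summed signals of 9.71 against 9.56. Cxcr2, which was not clear, had 1.26, Ptprc 0.42, Itgam -0.20 and Csf1r -0.04. Among the 3 clear leukocyte markers 2 were below 0, with a median of -0.04. Secretory and gland markers had a median of -0.07, with summed signals of 15.36 and 15.38 and with Scgb1a1 under background level in both arrays. The olfactory neuron markers, 5 of 5, were below 0 with a median of -0.28, and sustentacular markers had a median of -0.02. The part of these marker differences in the keratin ratios was not tested.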

How the data were processed

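The value table holds 1 log2 signal per transcript cluster for 2 arrays, and the authors deposited it in that scale as read from the values, whose medians were 5.70 (papain) and 5.64 (PBS). Per the submitters' processing notes the software was Transcriptome Analysis Console 4.0. How background was corrected, probes summarised and arrays normalized, and on which genome build, is not given in the sources used here. If the arrays were equalised, a difference in total RNA cannot be seen. Of 41345 rows 23521 carried 1 gene symbol in the platform annotation, 1814 several and 16010 none; only the first were named. All 53 keratin symbols matched RefSeq gene IDs. Members, classes and lists were chosen with earlier results of these data known. Every keratin could be named; from other lists up to 4 members with the largest absolute ratio, and those of the keratin-associated proteins only past 2-fold with both signals above background level. The counting steps were tested on simulated data. Alternatives were quantile normalization, median centring, loess (span 0.3), averaged rows, rows with several symbols, filters on signal and folds of 1.5 and 3. The mark of 6.65 was applied as a filter after the data had been seen. The software was Python 3.11.15 with numpy 2.4.6, pandas 2.3.3, statsmodels 0.14.6 and matplotlib 3.10.9.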

Additional observations from a re-analysis of the deposited data

Results flagged for a closer look

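A row that carries the names of both Krt5 and Krt6a entered no main comparison, because it cannot be given to 1 gene. It entered only the alternative with rows of several symbols added. It read 10.18 after papain and 9.83 after PBS, a log2 ratio of 0.36 above the PBS array and past the SD of 1 row, 0.32. The row of Krt6a alone had -0.26.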

How the results depend on the processing

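No paired analysis was possible because each group is 1 array, and no array could be left out. Of the 53 keratin ratios, 6 changed sign under another scaling or another choice of rows: Krt6a, Krt13, Krt71, Krt2, Krt28 and Krt31. Krt6a went from -0.26 to 0.36 with rows of several symbols added, and Krt18 from -0.22 to -0.58 with averaged rows. The count of keratins at least 2-fold higher was 1 as deposited, 2 at 1.5-fold, and 0 at 3-fold, after quantile normalization, after loess, above background level, among clear genes and with the higher signal at the median of named genes or above. The count at least 2-fold lower was 1, became 3 at 1.5-fold, and was 0 at 3-fold, after quantile normalization, after loess and with the median ratio set to 0. Keratins with a ratio below 0 numbered 33 as deposited, 17 among clear genes and 18 with the higher signal at that median, where the number of genes was smaller by construction. The median of all keratins was -0.25 under both of these filters. Under the same filters in that order, the inner root sheath and companion layer median of 0.01 became -1.00 and -0.32, that of the keratins of no other class, -0.05 as deposited, became -0.23 and -0.38, that of stress and appendage keratins, 0.00 as deposited, -0.26 in both, and that of epidermal keratins -0.52 in both. Few genes stand behind these class medians. Among clear genes Krt75 alone gave the inner root sheath and companion layer value. The keratins of no other class were 2 genes there, stress and appendage 3 and epidermal 2. With the higher signal at the median of named genes or above, the -0.32 came from Krt75 and Krt73. The stress and appendage value of -0.26 was that of Krt6a, for which no direction is given. Above background level in both arrays, 25 of 40 keratins were below 0 and the median of all keratins was -0.07. Under that filter the inner root sheath and companion layer median was 0.39 and the epidermal median -0.24, each of 4 genes. With rows of several symbols added the stress and appendage median was 0.26. Clear keratins lower by more than the SD of 1 row numbered 6, and 10 with the SD of clear rows, an alternative chosen after the data had been seen. Signal over background limits the 35 keratins that were not clear: a ratio with a signal near background level is of uncertain size.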

Other observations

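Of 15 measured intermediate filament genes outside the keratins 12 had ratios above 0, with a median of 0.20, beside 45.6% of all named genes. Of the 4 that were clear in both arrays 2 were above 0 and 2 below, with a median of 0.07, so the count rests on the 11 that were not clear. Nefl, the light neurofilament chain, had 0.96 with both signals under background level. Prph, peripherin of peripheral neurons, read 6.36 after papain and 5.84 after PBS, a ratio of 0.52, and Gfap, the filament gene of glia, read 5.60 and 5.18, a ratio of 0.42. Lmna, the lamin A gene of the nuclear envelope, was lower, at 7.03 and 7.49, a ratio of -0.45. Vim, vimentin of mesenchymal cells, named after its value was seen, read 10.61 in both arrays.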
